A study of Homo sapiens with 6 samples.

Results

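The collagen genes are the protein-coding genes whose symbols begin with COL followed by a type number, the letter A and a chain number. This rule found 44 genes among the 58302 gene rows of the table, 19817 of which are protein-coding. By the structure of their products they were divided into 11 fibrillar collagens, 6 basement membrane collagens (type IV) and 27 collagens of other types. Counts were obtained by paired-end RNA sequencing of A549 cells, an established human lung adenocarcinoma line. One group of 3 libraries came from cells transfected with SNHG5, a long non-coding RNA that hosts small nucleolar RNAs, and the other group of 3 came from cells transfected with the vector. All cells were grown at passages 6 to 8 in the same serum-containing medium, and the submitters describe the 3 libraries of each group as biological replicates. All values therefore come from one cell line, and the sources used here do not give the construct or the time after transfection. The libraries are named below as overexpression 1 to 3 and control 1 to 3.

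Collagens are secreted proteins whose alpha chains, rich in regularly spaced glycine, wind around each other in a triple helix. Fibrillar collagens are trimmed by proteases outside the cell and assemble into banded fibrils, whereas type IV collagen keeps its ends and forms the sheet-like network of basement membranes. Other types decorate fibrils, form beaded filaments, anchor epithelia or span the cell membrane. In the lung, alveolar epithelium rests on a type IV network, and most fibrillar collagen is laid down by fibroblasts of the interstitium.

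The libraries held 13378079 to 16999604 counts, so that 3 counts in a library corresponded to 0.176 to 0.224 CPM (counts relative to the scaled size of the library). SNHG5 stood at 153, 126 and 62.9 CPM in overexpression 1, 2 and 3 and at 61.0, 101 and 55.1 CPM in controls 1, 2 and 3. The library labelled overexpression 3 was thus below the control mean of 72.5 CPM, and the groups overlapped. The fitted log2 difference for SNHG5 was 0.66 with a standard error (SE) of 0.37 and an adjusted p of 0.746 by edgeR's quasi-likelihood test with Benjamini-Hochberg adjustment over 15631 genes. Within same-numbered libraries SNHG5 was higher with overexpression in 3 of 3 pairs, by 1.33, 0.32 and 0.19 on the log2 scale, and the fit with the replicate number as a block gave 0.61 (adjusted p = 0.545, edgeR). Over all genes, overexpression 3 was closer to control 3 (Spearman's rho across genes 0.981) and control 1 (0.973) than to overexpression 1 (0.95) and 2 (0.954). The lowest rho was 0.925, between control 2 and overexpression 1. For a part of the genes below, the fitted difference is also given without overexpression 3. Markers of an epithelial carcinoma line were all detected, with 8 of 8 genes tested and a summed level of 7247 to 10574 CPM with SNHG5 and 9762 to 13675 CPM with the vector. Among them the groups of KRT8, a keratin, did not overlap (fitted log2 difference -0.65, adjusted p = 0.746, edgeR). CDH1, the epithelial cadherin, stood at 7.89, 8.59 and 28.0 CPM in overexpression 1, 2 and 3 and at 17.1, 33.6 and 30.0 CPM in controls 1, 2 and 3. Fitted log2 differences of the other epithelial markers were 0.32 for EPCAM and 0.01 for KRT19 (edgeR). They were -0.30 for KRT18, -0.28 for ALDH1A1, -0.56 for AKR1B10 and -0.48 for AKR1C1. The part of these markers in the collagen values below was not tested. Of 10 fibroblast markers, DPT and PDPN had no count, and the summed level of the list was 26.5 to 40.4 CPM with SNHG5 and 33.6 to 40.5 CPM with the vector, with ACTA2 alone at 23.2 to 34.9 CPM. Of 6 leukocyte markers, PTPRC, CD3E and LYZ had no count, and CD68, which is also a lysosomal membrane protein, held most of a sum of 27.4 to 39.4 CPM with SNHG5 and 75.4 to 93.1 CPM with the vector. Of 6 endothelial markers 3 had no count and the sum reached 0.185 CPM at most.

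No collagen gene passed edgeR's test between SNHG5-transfected and vector-transfected cells. Of the 44 genes, 34 had at least 1 count and 25 had enough to be tested: 8 fibrillar, 6 basement membrane and 11 other collagens. edgeR called 0 of the 25 at an adjusted p under 0.05, while 0.128% of all genes tested were called (0.102% lower and 0.0256% higher). At an unadjusted p under 0.05 edgeR listed 1 of the 25, COL5A3, against 6.49% of all genes. DESeq2 called 1 of the 25 (COL5A3, lower) where 1.7% of all genes were called (1.57% lower), and limma-voom called 0 where 0.154% were called. At an unadjusted p under 0.05 each of them listed COL5A3 alone, against 7.43% of all genes in DESeq2 and 6.83% in limma-voom. With the replicate number as a block, edgeR called 0 of the 25 (0.467% of all genes) and listed 3 at an unadjusted p under 0.05, namely COL5A3, COL18A1 and COL11A1 (9.29% of all genes). The fitted difference was below 0 for 20 of the 25, against 49.3% of all genes, and this held for 8 of 8 fibrillar, 4 of 6 basement membrane and 8 of 11 other collagens. The median log2 difference was -0.29 over the collagens, -0.35 over the fibrillar, -0.29 over the basement membrane and -0.27 over the other collagens, with 0.01 over all genes. These counts and medians describe the lists and were not tested.

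**Figure D1:**
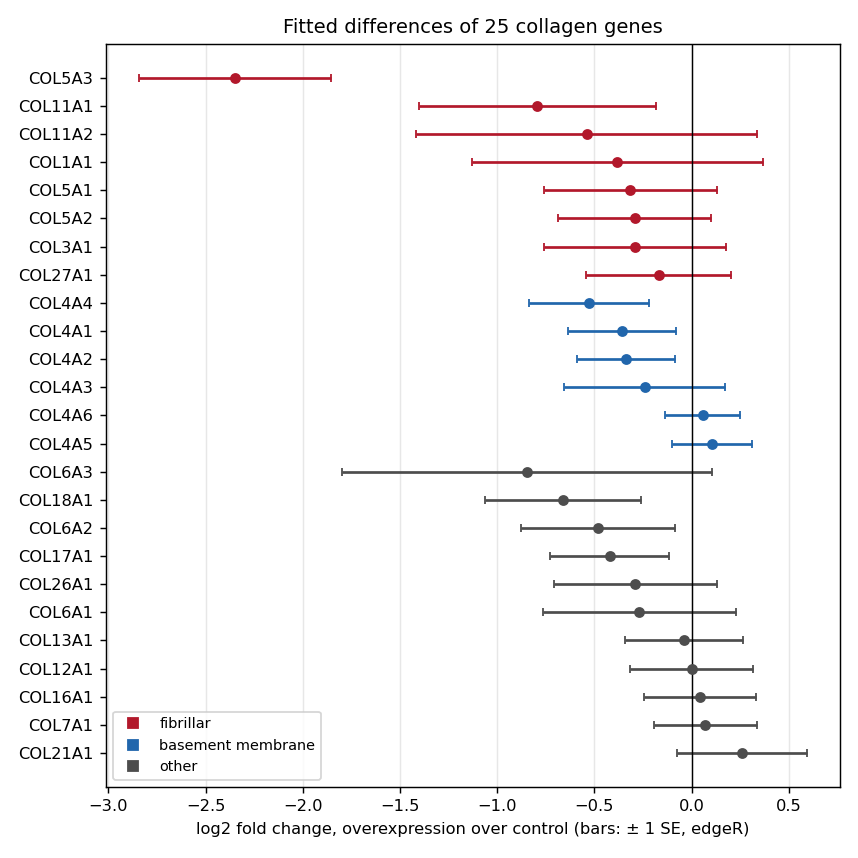
Fitted log2 difference (overexpression minus control) of the 25 tested collagen genes with its standard error, grouped as fibrillar, basement membrane and other collagens. COL5A3 stands lowest at -2.35, and the other genes lie between -0.85 and 0.26.

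The libraries of one group were far apart in collagen levels. Overexpression 1 held the lowest value of all 6 libraries for 10 of the 25 genes and overexpression 2 for 8, while over all genes these libraries were lowest for 22.2% and 14.8%. Control 3 held the highest value for 11 of the 25 and overexpression 3 for 7, while over all genes they were highest for 11.4% and 18.0%. All 6 basement membrane collagens were highest in control 3. Control 1 and control 3 were lowest for 0 of the 25 genes. These libraries moved the median. The collagen median of -0.29 went to -0.55 without overexpression 3 and to -0.50 without control 2. Without overexpression 1, overexpression 2 or control 3 it was -0.12, -0.07 and -0.04. Without overexpression 3, edgeR listed 8 of the 25 at an unadjusted p under 0.05, all of them lower in the overexpression libraries, against 21.2% of all genes, and called 0. These 8 were COL1A1, COL5A1, COL5A2, COL5A3, COL6A1, COL6A2, COL6A3 and COL18A1. The share of all genes called without overexpression 3 was not counted.

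**Figure D2:**
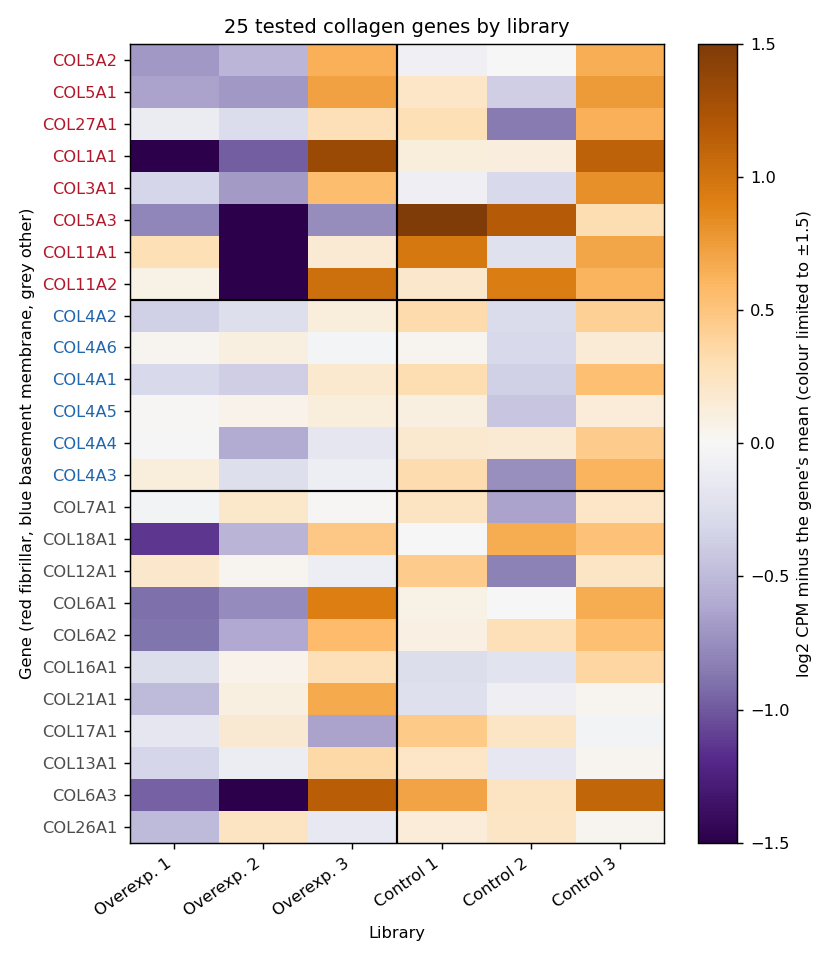
Deviation of each tested collagen gene from its own mean over the 6 libraries, on the log2 CPM scale, as a heatmap of genes by libraries. Genes are grouped by class, and class medians are not drawn. The medians of the fibrillar collagens are -0.48, -0.84 and 0.60 in overexpression 1, 2 and 3, against 0.21, -0.11 and 0.67 in controls 1, 2 and 3.

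Taken by same-numbered libraries, 25 of 25 collagens were lower in overexpression 1 than in control 1 (median log2 difference -0.61), against 49.6% of all genes. In the second pair 14 of 25 were lower (median -0.06, 51.4% of all genes), with unlike counts by class: 7 of 8 fibrillar collagens were lower with a median of -0.80, and 2 of 6 basement membrane collagens were lower with a median of 0.21. In the third pair 18 of 25 were lower, with a median of -0.18 and 49.6% of all genes lower. The difference between the classes in the second pair was not tested, and no label states that same-numbered libraries are pairs.

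**Figure D3:**
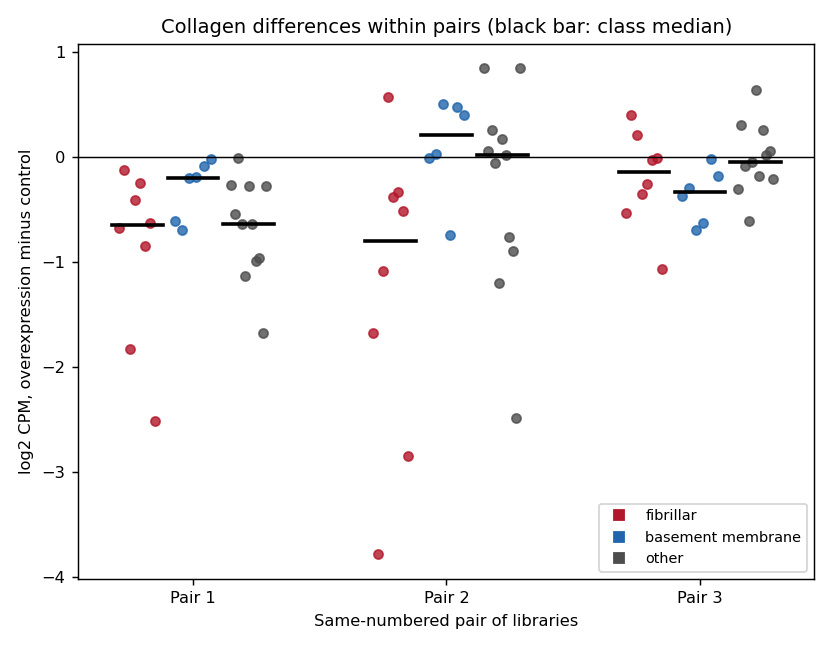
Log2 difference of each tested collagen gene within same-numbered libraries (overexpression minus control), by class. All 25 genes lie below 0 in the first pair, 14 in the second and 18 in the third.

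Summed over the family, collagens took 0.189, 0.211 and 0.295% of all counts in overexpression 1, 2 and 3, against 0.258, 0.207 and 0.305% in controls 1, 2 and 3. The groups overlapped, with control 2 between the first 2 overexpression libraries. The fibrillar collagens took 0.0415, 0.0458 and 0.106% of all counts in overexpression 1, 2 and 3, against 0.0654, 0.0633 and 0.101% in controls 1, 2 and 3. Overexpression 1 and 2 were thus below every control in the fibrillar share, and overexpression 3 was above every control. Within the collagen counts, the fibrillar part was 21.9, 21.8 and 36.1% in overexpression 1, 2 and 3, against 25.4, 30.6 and 33.2% in the controls. Basement membrane collagens took 0.0975, 0.105 and 0.121% of all counts in overexpression 1, 2 and 3, against 0.126, 0.0926 and 0.135% in the controls, with the lowest value in control 2. These are bulk cultures, in which fewer cells making a collagen and less of its RNA per cell cannot be told apart.

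**Figure D4:**
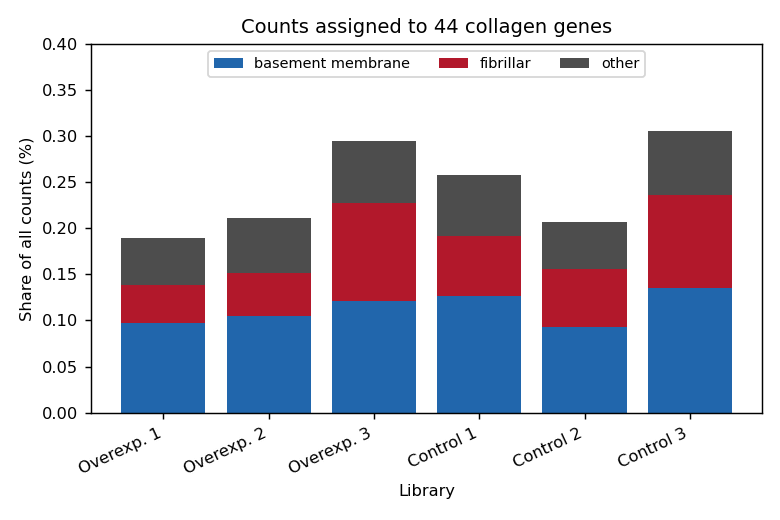
Share of all counts of each library that fell in fibrillar, basement membrane and other collagen genes (percent). The total runs from 0.189% in overexpression 1 to 0.305% in control 3.

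To compare genes of different length, levels were also expressed as TPM, the counts divided by gene length and scaled to one total in every library, with the merged exons of a gene as its length. On this scale COL5A2 was the most abundant collagen, at a mean TPM of 217 (SD 81.6 over all 6 libraries). It was followed by COL4A6 at 111, COL7A1 at 87.8, COL4A2 at 79.0, COL5A1 at 49.0, COL4A1 at 47.0, COL18A1 at 46.7, COL4A5 at 37.6 and COL12A1 at 31.8 TPM. Only COL5A2 and COL4A6 were neighbours in this order whose ranges over the libraries did not overlap (126 to 319 against 86.2 to 125 TPM). The order depends on the length taken for each gene. With the transcript of the longest coding sequence as the length, COL4A2 came first at 161 and COL5A2 second at 157 TPM, because the merged exons of COL4A2 hold 19293 bases and that transcript 6494. The type I and type III chains that dominate interstitial fibrils were low: COL1A1 had a mean of 2.73 TPM and COL3A1 of 1.30 TPM.

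**Figure D5:**
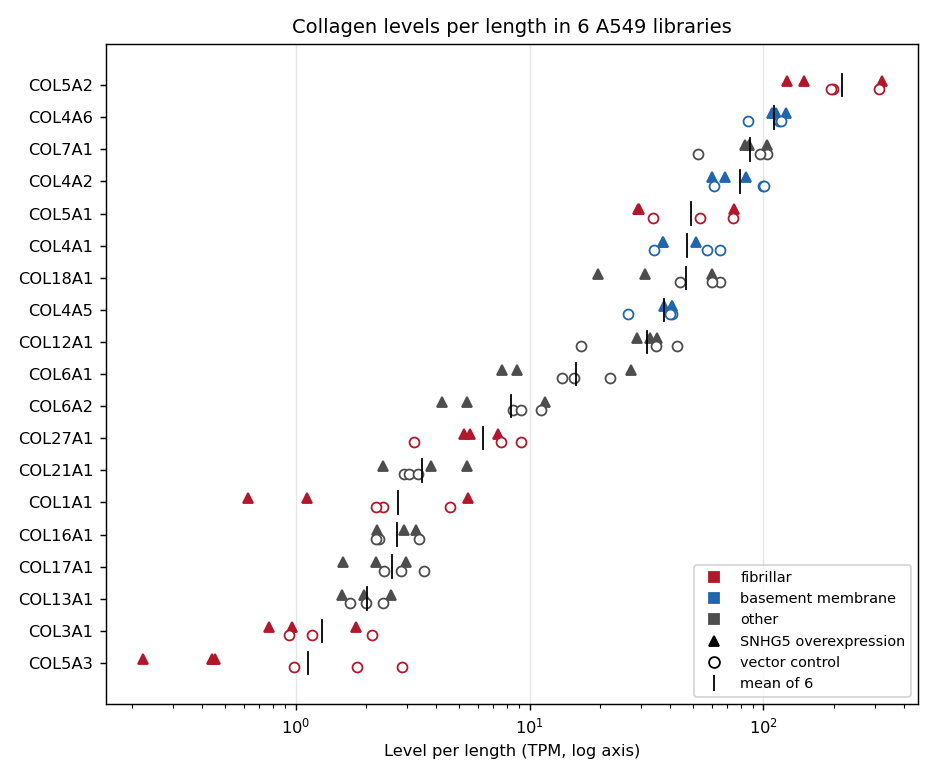
TPM of the collagen genes with a mean of at least 1 TPM in each of the 6 libraries, on a log axis and ordered by their mean. Colour gives the class of the gene, and marker shape gives the group of the library. COL5A2 leads at a mean of 217 TPM.

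Among the fibrillar collagens, type V forms the core of fibrils and sets their diameter, and its chains COL5A2 and COL5A1 had the highest mean TPM of the class. COL5A2 (chr2:189031896-189179879, minus strand) stood at 288, 324 and 728 CPM in overexpression 1, 2 and 3 and at 444, 464 and 733 CPM in controls 1, 2 and 3. Overexpression 1 and 2 were below all controls, and overexpression 3 was level with control 3. The fitted log2 difference for COL5A2 was -0.29 (SE 0.39, adjusted p = 0.830, edgeR) and -0.84 without overexpression 3. COL5A1 (chr9:134641774-134844843, plus strand), the chain present in nearly every type V trimer, stood at 99.6, 95.3 and 256 CPM in overexpression 1, 2 and 3 and at 179, 120.1 and 261 CPM in controls 1, 2 and 3. The libraries fell in a like order, and the fitted difference was -0.31 (SE 0.44), or -0.94 without overexpression 3. The ratio of COL5A2 to COL5A1 in TPM was 4.34, 5.11 and 4.28 in the overexpression libraries and 3.72, 5.80 and 4.21 in the controls. The ratio did not separate the groups (exact permutation test, two-sided, p = 0.8, adjusted p = 0.96 over 6 chain ratios, where 3 against 3 libraries allow no p below 0.1).

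COL5A3 (chr19:9959561-10010471, minus strand), a type V chain of restricted distribution, had the lowest fitted difference of the family. It stood at 0.910, 0.437 and 0.931 CPM in overexpression 1, 2 and 3 and at 5.80, 3.94 and 2.09 CPM in controls 1, 2 and 3. Those levels rest on 15, 6 and 16 counts and on 87, 60 and 34 counts, and every overexpression library was below every control. Of the 25 collagens, 2 had groups that did not overlap with the overexpression libraries lower (COL5A3 and COL4A4), against 7.52% of all genes, and 0 had them higher, against 6.04%. The fitted log2 difference of COL5A3 was -2.35 (SE 0.49), that is 5.09-fold lower, with an adjusted p of 0.156 by edgeR. It was called by DESeq2 (adjusted p = 0.00276) and not by limma-voom (adjusted p = 0.223) or by edgeR with the replicate block (adjusted p = 0.148). Leaving out each library in turn gave -2.66 to -1.97 and edgeR adjusted p from 0.105 to 0.558. The ratio of COL5A3 to COL5A1 in TPM was 0.0152, 0.0076 and 0.0060 in the overexpression libraries and 0.0537, 0.0543 and 0.0133 in the controls (exact permutation test, two-sided, p = 0.2, adjusted p = 0.9). A gene on the opposite strand whose exons overlap those of COL5A3, AC008742.1, had no count.

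The sequences upstream of COL5A1 and COL5A3 are shown because these are the type V genes in the RefSeq table and they had fitted differences of -0.31 and -2.35. RefSeq (GRCh38.p14) gives the 250 bases before the start of each, with matches to CCAAT and GGGCGG on either strand in capitals. COL5A1 lies at chr9:134641553-134641802 on the plus strand and COL5A3 at chr19:10010505-10010754 on the minus strand.
COL5A1: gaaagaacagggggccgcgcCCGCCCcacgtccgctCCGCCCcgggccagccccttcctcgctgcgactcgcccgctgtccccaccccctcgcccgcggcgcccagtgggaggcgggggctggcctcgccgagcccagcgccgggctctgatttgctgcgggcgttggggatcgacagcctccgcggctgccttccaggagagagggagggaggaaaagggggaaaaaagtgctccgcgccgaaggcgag
COL5A3: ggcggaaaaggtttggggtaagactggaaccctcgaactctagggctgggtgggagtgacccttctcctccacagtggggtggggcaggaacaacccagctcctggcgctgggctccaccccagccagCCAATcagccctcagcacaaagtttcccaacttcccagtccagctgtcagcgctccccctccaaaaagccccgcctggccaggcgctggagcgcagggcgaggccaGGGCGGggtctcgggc
The COL5A1 window had a GC content of 74.0% and held 2 GGGCGG, without CCAAT. The COL5A3 window had a GC content of 66.0% and held 1 of each motif. Of the 27305 promoters in the table, 33.0% held CCAAT, 42.3% held GGGCGG, and the median GC content was 58.0%. TATAAA, held by 11.1% of promoters, was also searched on both strands and had no match in either window.

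The other fibrillar chains were low. COL1A1, the main chain of type I collagen, stood at 1.88, 3.20 and 16.4 CPM in overexpression 1, 2 and 3 and at 7.0, 6.95 and 14.2 CPM in controls 1, 2 and 3. Its highest and its lowest libraries were all in the overexpression group. The fitted difference of COL1A1 was -0.38 (SE 0.75), -1.89 without overexpression 3 and 0.07 without overexpression 1. COL1A2, the partner chain of COL1A1, had 2 counts in all, both in overexpression 3, and COL2A1, the cartilage collagen, had 3 counts, all in the same library. COL3A1, which joins type I in fibrils of elastic tissues, stood at 2.00, 1.53 and 3.78 CPM in overexpression 1, 2 and 3 and at 2.40, 2.03 and 4.56 CPM in controls 1, 2 and 3, with a fitted difference of -0.29, or -0.76 without overexpression 3. COL11A1, a chain of the type XI collagen that nucleates cartilage fibrils, stood at 2.12, 0.364 and 1.92 CPM in overexpression 1, 2 and 3 and at 3.47, 1.44 and 2.83 CPM in controls 1, 2 and 3. Its groups overlapped, and its fitted difference was -0.79 (SE 0.61). COL11A2 stood at 0.850, 0 and 1.75 CPM in overexpression 1, 2 and 3 against 0.933, 1.64 and 1.29 CPM in the controls. The fitted difference of COL11A2 was -0.54 (SE 0.88), or -1.52 without overexpression 3. COL27A1, a fibrillar collagen of cartilage, stood at 23.8, 21.4 and 31.5 CPM in overexpression 1, 2 and 3 and at 31.7, 14.3 and 40.3 CPM in controls 1, 2 and 3, and its fitted difference was -0.17, or -0.35 without overexpression 3. Control 2 was the lowest library for COL27A1 and control 3 the highest.

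The type IV chains of the basement membrane are encoded as 3 head-to-head gene pairs, and both genes of a pair are read outward from a shared stretch. COL4A1 and COL4A2, the chains of the ubiquitous network, start 126 bases apart on chromosome 13, and their spans in the table overlap by 1338 bases. COL4A6 and COL4A5 start 379 bases apart on chromosome X, and COL4A4 and COL4A3 start 418 bases apart on chromosome 2. The stretch between the COL4A1 and COL4A2 starts (chr13:110307158-110307283, RefSeq GRCh38.p14, plus strand, reading toward COL4A2) is shown because both genes are read from it.
COL4A1-COL4A2: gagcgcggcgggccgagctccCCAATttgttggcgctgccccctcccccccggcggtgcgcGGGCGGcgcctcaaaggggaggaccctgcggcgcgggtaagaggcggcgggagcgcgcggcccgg
This stretch held 1 CCAAT and 1 GGGCGG (capitals) at a GC content of 80.2%, whereas 21.9% and 34.6% of promoters held these motifs in the 126 bases before their start. The library kit does not mark strand, so reads from the overlapped part of COL4A1 and COL4A2 cannot be assigned to one of them by strand.

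COL4A1 stood at 167, 159 and 232 CPM in overexpression 1, 2 and 3 and at 254, 160.4 and 301 CPM in controls 1, 2 and 3. COL4A2 stood at 355, 386 and 496 CPM in overexpression 1, 2 and 3 and at 576, 378 and 609 CPM in controls 1, 2 and 3. In both genes controls 1 and 3 were above every overexpression library, and control 2 was level with overexpression 1 and 2. The fitted differences were -0.36 (SE 0.28, adjusted p = 0.751, edgeR) for COL4A1 and -0.34 (SE 0.25, adjusted p = 0.749, edgeR) for COL4A2. Without overexpression 3 they were -0.55 and -0.49, and without control 2 they were -0.58 and -0.52. The COL4A2 to COL4A1 ratio in TPM was 1.55 to 1.85 over the 6 libraries (exact permutation test, two-sided, p = 1), or 2.06 to 2.47 with the transcript of the longest coding sequence as the length.

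COL4A5 and COL4A6 make up a network of epithelial and smooth muscle basement membranes. COL4A5 stood at 136, 140.0 and 148 CPM in overexpression 1, 2 and 3 and at 145, 100.2 and 149 CPM in controls 1, 2 and 3. COL4A6 stood at 320.1, 337 and 308 CPM in overexpression 1, 2 and 3 and at 324, 256 and 348 CPM in controls 1, 2 and 3. Control 2 was the lowest library for both, and the fitted differences were 0.11 (SE 0.21) for COL4A5 and 0.06 (SE 0.19) for COL4A6, the smallest standard errors among the tested collagens. The COL4A6 to COL4A5 ratio in TPM lay between 2.67 and 3.26 (exact permutation test, two-sided, p = 0.6). COL4A3 and COL4A4, which join COL4A5 in the network of alveolar and glomerular basement membranes, were near 1 TPM. COL4A3 stood at 2.37, 1.82 and 2.04 CPM in overexpression 1, 2 and 3 and at 2.73, 1.25 and 3.39 CPM in controls 1, 2 and 3, with a fitted difference of -0.24. COL4A4 stood at 2.55, 1.67 and 2.27 CPM in overexpression 1, 2 and 3 and at 2.93, 2.89 and 3.57 CPM in controls 1, 2 and 3, and its groups did not overlap. The fitted difference for COL4A4 was -0.53 (SE 0.31), and it was not called by edgeR, DESeq2 or limma-voom.

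Of the 27 other collagens, 11 were tested. COL7A1, which forms the anchoring fibrils that tie epithelia to the matrix beneath, stood at 283, 334 and 293 CPM in overexpression 1, 2 and 3 and at 343, 186 and 338 CPM in controls 1, 2 and 3. COL12A1, a fibril-associated collagen, stood at 134, 119 and 110.4 CPM in overexpression 1, 2 and 3 and at 161, 66.2 and 137 CPM in controls 1, 2 and 3. For both genes control 2 was the lowest library and control 1 the highest, and the fitted differences were 0.07 (SE 0.26) and 0.00. COL18A1 (chr21:45405137-45513720, plus strand), a basement membrane proteoglycan core whose end is released as endostatin, stood at 51.2, 77.6 and 157 CPM in overexpression 1, 2 and 3 and at 112, 178 and 161 CPM in controls 1, 2 and 3. Overexpression 1 and 2 were below all controls and overexpression 3 was level with control 3. The fitted difference of COL18A1 was -0.66 (SE 0.40, adjusted p = 0.746, edgeR), and -0.79 with the replicate block (adjusted p = 0.507, edgeR). Without overexpression 3 it was -1.22. Exons of SLC19A1, a folate carrier gene on the opposite strand, overlap those of COL18A1, and SLC19A1 had 144, 172 and 480 counts in overexpression 1, 2 and 3 against 315, 399 and 418 counts in the controls. Its libraries fell in a like order to those of COL18A1, and reads from the overlap cannot be told apart without strand.

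COL6A1, COL6A2 and COL6A3 are the chains of type VI collagen, which forms beaded filaments close to the cell surface. COL6A1 stood at 12.4, 13.8 and 44.5 CPM in overexpression 1, 2 and 3 and at 24.8, 23.4 and 37.1 CPM in controls 1, 2 and 3. COL6A2 stood at 6.98, 8.44 and 19.3 CPM in overexpression 1, 2 and 3 and at 13.7, 15.8 and 19.0 CPM in controls 1, 2 and 3. For both chains overexpression 1 and 2 were below all controls and overexpression 3 was the highest library. The fitted differences were -0.27 for COL6A1 and -0.48 for COL6A2, and -1.12 and -1.07 without overexpression 3. COL6A3, the long chain that completes the trimer, was near the limit of detection. It stood at 0.182, 0 and 1.22 CPM in overexpression 1, 2 and 3 and at 0.866, 0.590 and 1.17 CPM in controls 1, 2 and 3. The fitted difference of COL6A3 was -0.85 (SE 0.95), or -3.07 without overexpression 3. COL6A1 exceeded COL6A2 1.49 to 2.33 times in TPM, with overlapping groups (exact permutation test, two-sided, p = 0.6).

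The remaining tested members were at low levels and their groups overlapped. COL21A1, a fibril-associated collagen, had the highest fitted difference of the family at 0.26, from 5.10, 7.79 and 11.7 CPM in overexpression 1, 2 and 3 and 6.20, 6.89 and 7.45 CPM in the controls. Without overexpression 3, its highest library, the difference for COL21A1 was -0.09. COL16A1, of the same class, stood at 6.31, 7.86 and 9.26 CPM in overexpression 1, 2 and 3 and at 6.33, 6.56 and 9.85 CPM in controls 1, 2 and 3. Of the transmembrane collagens, COL17A1, the hemidesmosome component of basal epithelia, stood at 4.79, 6.11 and 3.43 CPM in overexpression 1, 2 and 3 and at 7.53, 6.36 and 5.30 CPM in controls 1, 2 and 3. Overexpression 3 was the lowest library for COL17A1, and its fitted difference was -0.42. COL13A1, of the same class, stood at 2.85, 3.35 and 4.60 CPM in overexpression 1, 2 and 3 and at 4.20, 3.21 and 3.70 CPM in controls 1, 2 and 3, with a fitted difference of -0.04, or -0.26 without overexpression 3. COL26A1 averaged 0.603 CPM with SNHG5 and 0.733 CPM with the vector. Among the 9 members with counts that were not tested, COL28A1 had 44 counts over all libraries, COL15A1 had 42, COL24A1 had 7 and COL8A1 had 4. COL22A1 had 2 counts, and COL9A2 and COL9A3 had 1 each, in addition to COL1A2 and COL2A1 above. The 10 members with no count were COL6A5, COL6A6, COL8A2, COL9A1, COL10A1, COL14A1, COL19A1, COL20A1, COL23A1 and COL25A1, for which 0 counts allow up to 0.176 to 0.224 CPM in a library.

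Promoters of 32 of the 44 members were in the RefSeq table, 21 of them of tested members. Of these 21, 7 held CCAAT (33.3%), 13 held GGGCGG (61.9%) and 4 held TATAAA (19.0%), against 33.0%, 42.3% and 11.1% of all promoters.

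Genes that process, carry, bind or degrade collagen were examined as 7 lists of 95 genes in all, 73 of which were tested. edgeR called 0 of the 73 (0.128% of all genes) and gave a median log2 difference of -0.16. It listed 6 at an unadjusted p under 0.05, against 6.49% of all genes. Of these, TGM2, NID1, AGRN, LOXL4 and COLGALT2 were lower with overexpression. TLL1, a relative of BMP1 in the propeptide cleavage list, was higher (fitted log2 difference 1.16) with overlapping groups. DESeq2 called 1 (TGM2, lower) where 1.7% of all genes were called, and limma-voom called 0 where 0.154% were called. The groups did not overlap for 8 genes lower with overexpression and 2 higher (KLHL12 and LAMA4), against 7.52% and 6.04% of all genes. The 20 hydroxylation and folding genes were all tested, and 15 had a fitted difference below 0 (median -0.26). P4HB, a subunit of prolyl 4-hydroxylase, stood at 422 ± 74.9 CPM with SNHG5 against 518 ± 25.4 CPM with the vector (SD, n = 3). PLOD2, which hydroxylates telopeptide lysines, stood at 886 ± 184 CPM against 711 ± 168 CPM. FKBP10, a collagen chaperone of the endoplasmic reticulum, stood at 74.8 ± 17.3 CPM against 97.7 ± 3.47 CPM, and its groups did not overlap. All 10 secretion genes were tested, with a median of 0.04. SEC24D, a cargo adaptor of the COPII coat that carries procollagen, stood at 43.8 ± 1.71 CPM against 57.8 ± 7.22 CPM, without overlap. KLHL12, a ubiquitin ligase adaptor that enlarges COPII coats for procollagen, was chosen after its values were seen and stood higher at 46.0 ± 6.63 CPM against 36.1 ± 1.52 CPM, also without overlap. SEC23A, SEC31A and SAR1A, further parts of the coat, had fitted differences of 0.05, 0.27 and -0.08, and PPIB, a prolyl isomerase of procollagen folding, had -0.15.

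Of 15 propeptide cleavage and cross-linking genes 8 were tested (median -0.07). TGM2, which cross-links matrix proteins through glutamine and lysine residues, stood at 1059.6, 949 and 1472 CPM in overexpression 1, 2 and 3 and at 2053, 2858 and 3212 CPM in controls 1, 2 and 3. Every overexpression library was below every control. Its fitted difference was -1.22 (SE 0.27), with an adjusted p of 0.193 by edgeR, 0.0962 with the replicate block and 0.00216 by DESeq2. BMP1, the procollagen C-proteinase, averaged 42.7 CPM against 51.9 CPM, and LOXL2, a lysyl oxidase of type IV collagen, averaged 353 CPM against 408 CPM. Of 11 receptor and uptake genes 9 were tested, with a median of 0.22. ITGB1, the shared beta chain of the collagen-binding integrins, stood at 3343 ± 566 CPM against 2486 ± 1068 CPM, and ITGA2, its partner in the receptor for type I collagen, had a fitted difference of 0.63, or 1.10 without overexpression 3. CD44, a hyaluronan receptor that also binds collagen, had 0.22, and ITGA10, a collagen-binding integrin chain at a few CPM, had -0.54. Groups overlapped for each of these receptors.

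Of 16 basement membrane partners 14 were tested (median -0.03). NID1, which links the laminin and type IV networks, stood at 24.8, 11.4 and 26.8 CPM in overexpression 1, 2 and 3 and at 42.6, 35.6 and 46.1 CPM in controls 1, 2 and 3. The groups of NID1 did not overlap, and its fitted difference was -0.98 (SE 0.33, adjusted p = 0.585, edgeR). AGRN, a heparan sulfate proteoglycan of basement membranes, was chosen after its values were seen. It stood at 162, 197 and 385 CPM in overexpression 1, 2 and 3 and at 442, 468 and 510.5 CPM in controls 1, 2 and 3, with a fitted difference of -0.93 (adjusted p = 0.647, edgeR). Without overexpression 3 the difference for AGRN was -1.40 with an edgeR adjusted p of 0.0389, the 1 call in these lists in that fit. In the same fit 21.2% of all genes had an unadjusted p under 0.05 by edgeR, against 6.49% with all libraries. The share of all genes called in it was not counted. The laminin chains LAMA5, LAMB1 and LAMC1, which polymerise beside type IV collagen, had fitted differences of -0.20, -0.07 and 0.16. Of 12 small proteoglycans and fibril regulators 5 were tested (median -0.39), and of 11 degradation genes 7 (median -0.23). THBS1, a matricellular protein, averaged 322 CPM against 424 CPM, and FBLN1 and TNXB, matrix proteins that associate with fibrils, had fitted differences of -0.35 and -0.47. Without overexpression 3 the differences were -0.92 for THBS1 (from -0.39), -0.65 for FBLN1 and 0.00 for TNXB. MMP2, a gelatinase, averaged 27.6 CPM against 32.7 CPM with a fitted difference of -0.24, or -1.37 without overexpression 3, and the lysosomal protease CTSB had a fitted difference of -0.23. CTSL, a lysosomal protease that degrades collagen, averaged 131 CPM against 188 CPM, and its groups did not overlap. Its fitted difference was -0.52, and -0.13 without control 2, its highest library at 278 CPM.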

How the data were processed

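RNA from 6 cultures of A549 cells was sequenced as paired-end libraries. The authors deposited 1 table with whole-number counts and FPKM values per gene and library. FastQC, HISAT2 and the GRCh38 build are named in the submitters' processing notes. The counting program, strand setting and annotation release were not given in the sources used here. Deposited FPKM divides by the sum of all distinct exons of a gene (92.1% of 12850 genes), which exceeds the merged exons by a median of 1.52 times, and it was used only as an alternative for levels.

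Counts were fitted with edgeR 4.0.16 (R 4.3.3): filterByExpr, TMM scaling, a quasi-likelihood test over all 15631 genes left and Benjamini-Hochberg adjustment at 0.05, with 3 libraries a group. CPM values are TMM-scaled. TPM was computed from counts and the merged exons of GENCODE 29, in which 34 of the 44 collagens have the same position as in the table. Alternatives were DESeq2 1.42.0, limma-voom (limma 3.58.1), other size factors, other filters, a replicate block and leaving out each library. Replicates of a group differed beyond counting noise (chi-square 23.9 to 85.7 per degree of freedom) and were each counted. Same-numbered libraries deviated together (correlations 0.35, 0.16 and 0.29 for pairs 1, 2 and 3, against -0.34 to 0.12 for other pairs). The limit of 0.1 did not separate them, since overexpression 2 and control 1 had 0.12. No label states a pairing. The numbers were therefore used only for the replicate block and the values by same-numbered libraries, and the main fit is unpaired. Tested on simulated data with 15631 genes for this comparison, the edgeR fit recovered 12.7% of genes changed 2-fold, 78.0% changed 4-fold and 96.7% changed 8-fold, and 5.3% of its calls were false. All tested collagens are named (with each library where the mean is at least 1 CPM), as are untested ones with counts. From each pathway list the rule takes called genes, the 3 most abundant and the 1 with the smallest p at a mean of at least 1 CPM; others were chosen after their values were seen.

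The members and all lists were chosen with earlier results of these data known. Intervals and floors cover counting error only.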

Additional observations from a re-analysis of the deposited data

How the results depend on the processing

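With 3 libraries a group, a biological coefficient of variation of 30.8% limits the test, and changes near 2-fold could mostly not be called. Across 13 alternatives for the calls and medians, no collagen count or class median changed direction. Medians of pathway lists that were near 0 or small did. Without overexpression 1 the receptors went from 0.22 to -0.02 and the degradation genes from -0.23 to 0.14. The degradation median was also above 0 without overexpression 2 (0.05). The basement membrane partners went from -0.03 to 0.01 to 0.09 in every leave-out except that of control 2 (-0.11). Without control 1 the secretion genes went from 0.04 to -0.02. The count of collagens called lower was 0 with edgeR and 1 with DESeq2. The count of pathway genes called lower was 0 with edgeR, 1 with DESeq2, and 0 to 1 when each library was left out. For the fits that leave out a library, the share of all genes called was not counted. The fibrillar median of -0.35 ranged from -0.98 to -0.0152 when each library was left out, with -0.98 without overexpression 3. With the replicate block the medians were -0.33 for all collagens, -0.60 for fibrillar, -0.24 for basement membrane and -0.31 for other collagens, and the block changed no call. Among 644 fits of the 50 genes that the naming rule takes, which leave out AGRN and others chosen after their values were seen, 2 passed the threshold where edgeR did not (COL5A3 and TGM2, both DESeq2; AGRN passed in edgeR without overexpression 3), and in 39 fits of 19 genes a difference that was not called changed sign. With the transcript of the longest coding sequence as the length, an alternative chosen after seeing the data, mean TPM went from 79.0 to 161 for COL4A2, from 47.0 to 71.9 for COL4A1 and from 217 to 157 for COL5A2. Among the 19 collagens with a mean of at least 1 TPM it moved by more than the SD over libraries for COL4A1, COL4A2, COL4A5 and COL13A1.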

Other observations

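Several genes outside the collagen family had their lowest values in overexpression 1 and 2 and values in overexpression 3 near those of control 3, as COL1A1, COL6A1 and COL5A2 did. They were chosen after their values were seen, and the likeness was not tested. SPARC, a collagen-binding matricellular protein, stood at 7.77, 8.01 and 41.4 CPM in overexpression 1, 2 and 3 and at 15.1, 20.5 and 38.0 CPM in controls 1, 2 and 3. SERPINH1, the collagen chaperone HSP47, stood at 58.3, 55.8 and 146 CPM against 107, 125 and 148 CPM. MRC2, the endocytic collagen receptor, stood at 30.2, 38.2 and 104 CPM against 51.4, 80.2 and 90.0 CPM. The epithelial markers CDH1 (7.89, 8.59 and 28.0 CPM against 17.1, 33.6 and 30.0 CPM) and KRT8 (1265, 1306 and 2248 CPM against 2473, 2661 and 2438 CPM) were also lowest in overexpression 1 and 2. For each of these genes overexpression 1 and 2 were below every control. The epithelial marker list did not move as a whole. EPCAM, KRT19 and AKR1C1 had their lowest value in a control, and AKR1B10 had it in overexpression 1. KRT18 and ALDH1A1 were, like CDH1 and KRT8, lowest in overexpression 1 and 2. For SPARC, SERPINH1 and MRC2 edgeR's fitted log2 differences were -0.36, -0.55 and -0.36 with all libraries, and -1.64, -1.16 and -1.11 without overexpression 3, with adjusted p from 0.0624 to 0.122.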
